A study of Mus musculus with 40 samples.

Results

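The resting transport and metabolic functions of astrocytes were followed here in 10 genes, Aqp4, Slc1a2, Slc1a3, Glul, Gja1, Aldh1l1, Slc4a4, S100b, Aldoc and Hepacam. The genes were taken by symbol from a table of 55539 features (55536 mouse and 3 human) in bulk RNA of mouse cortex. No measured value set the choice, but it was made with earlier results of these data known. Each of the 10 symbols matched 1 row, and all 10 passed the filter on low counts that left 15224 genes for testing. With edgeR none of the 10 genes was found to differ between injury groups after adjustment over all genes tested, while DESeq2 called 1, Hepacam in 5xCHI against 1xCHI, where it called 3.44% of all genes. The largest excesses over Sham rested on 2 libraries taken after 5 injuries.

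Astrocytes clear glutamate from the synaptic cleft, convert it to glutamine, buffer ions and water around vessels, and pass metabolites to each other through gap junctions. These functions are what the term homeostatic refers to, in contrast to the reactive state after damage, of which the intermediate filament gene Gfap is the usual marker. Slc1a2 (GLT-1) and Slc1a3 (GLAST) encode the glutamate transporters, and Glul encodes glutamine synthetase. Aqp4 encodes the water channel of astrocyte endfeet, Slc4a4 a sodium bicarbonate cotransporter, and Gja1 the gap junction protein connexin 43. Hepacam encodes the cell adhesion protein GlialCAM, which places junction and channel proteins at cell contacts. Aldh1l1 encodes an enzyme of folate metabolism, Aldoc a glycolytic aldolase, and S100b a calcium-binding protein, and all 3 serve as astrocyte markers.

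The samples were left somatomotor cortices of female 3xTg-AD mice aged 2 to 4 months, a line that carries human transgenes with disease mutations, in every group, sham-injured controls included. Mice received closed-head injury (CHI), a weight-drop impact under isoflurane, at 24 h intervals, and sham-injured mice received the anesthesia alone. Tissue was taken 30 min, 4 h or 24 h after the last of 1, 3 or 5 injuries, and 24 h after 2 or 4 injuries, and all sham-injured mice form 1 Sham group. Group sizes were 4 for Sham, 3 for 2xCHI, 3 for 4xCHI, and in order of time 3, 3 and 4 for 1xCHI, 3, 2 and 4 for 3xCHI, and 3, 3 and 4 for 5xCHI. Sample 30, another 3xCHI library at 4 h, was left out, so 39 libraries entered. They held 15926014 to 27859547 counts (median 19028778), and among 46 replicate pairs none agreed within sampling noise (the smallest chi-square per gene was 6.85). In whole tissue, fewer astrocytes and less RNA per astrocyte cannot be told apart.

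Sample numbers are used here because 2 features of the libraries follow them. In the 5xCHI group, samples 10 (4 h) and 11 (24 h) stood apart with Gfap levels of 1627 and 2410 CPM (counts scaled to a fixed library total), against 105 to 558 CPM in the other 37 libraries. Samples 1 to 18 and 19 to 40 also differed, for example in the CPM ratio of Slc1a2 to Slc1a3, which averaged 4.64 ± 0.615 (SD, n = 18) and 5.53 ± 0.381 (n = 21). This division was chosen from earlier results of these data, and the labels do not call it a batch. Of the 4 Sham libraries, 1 lies in the lower range (sample 6) and 3 in the upper (samples 20, 35 and 39). Both features touch the results, so values are given without samples 10 and 11 where these bear on a comparison, and within a range, or with the range as a covariate, where a result turns on it.

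The proximal promoters of 3 of the genes are shown because their transcripts behaved differently in what follows: Aldh1l1 reached the largest excess in the 5xCHI group, Slc1a2 was below the Sham mean in samples 10 and 11, where the other genes were above it, and S100b ran against Slc1a2 across samples. Each sequence is the 250 bases before the RefSeq start site (GRCm38.p6, plus strand, 5′ to 3′), at chr6:90550543-90550792, chr2:102706188-102706437 and chr10:76253586-76253835. Capitals mark matches to any of 5 motifs, searched on both strands: the nuclear factor I half-site TTGGC, the AP-1 site TGANTCA, the STAT site TTCNNNGAA, the GC box GGGCGG and the SOX site ACAAAGG. GENCODE exons cover 4 bases of the Aldh1l1 window, 29 bases of the Slc1a2 window and none of the S100b window. The RefSeq starts of Aldh1l1 and Slc1a2 used here lie inside the wider GENCODE gene spans, so other starts of these genes are not shown.
Aldh1l1: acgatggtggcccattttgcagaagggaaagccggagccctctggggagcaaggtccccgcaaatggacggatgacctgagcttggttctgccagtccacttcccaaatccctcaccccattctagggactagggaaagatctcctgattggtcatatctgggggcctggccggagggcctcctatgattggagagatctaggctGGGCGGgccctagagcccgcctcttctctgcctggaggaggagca
Slc1a2: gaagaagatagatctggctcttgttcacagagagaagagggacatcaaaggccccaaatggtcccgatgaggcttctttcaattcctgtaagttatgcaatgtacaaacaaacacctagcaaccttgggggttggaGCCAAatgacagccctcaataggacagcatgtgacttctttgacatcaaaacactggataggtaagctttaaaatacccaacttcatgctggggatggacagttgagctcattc
S100b: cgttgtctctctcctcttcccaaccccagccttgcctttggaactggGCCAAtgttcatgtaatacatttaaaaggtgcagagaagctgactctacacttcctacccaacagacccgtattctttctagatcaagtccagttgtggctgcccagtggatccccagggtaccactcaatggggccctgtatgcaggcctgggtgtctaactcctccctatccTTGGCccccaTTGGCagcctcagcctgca
The Aldh1l1 window held 1 GC box and no other match, the Slc1a2 window held 1 nuclear factor I half-site, and the S100b window held 3 such half-sites, of which 2 lay within 30 bases of the start. The base composition also differed, with 59.6% G and C in the Aldh1l1 window, 44.8% in the Slc1a2 window and 53.6% in the S100b window, against a median of 52.4% over all windows. RefSeq windows were found for 9 of the 10 genes, 11 windows in all. The half-site occurred in 7 of the 11 and in 41.5% of 32851 windows of the same length, and the GC box in 5 of the 11 and in 32.7% of all. The STAT site occurred in 2 of the 11 (7.02% of all), the AP-1 site in 1 (6.75%) and the SOX site in 0 (5.08%). These matches describe letters only and are not binding sites.

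In GRCm38, the genes lie on 9 chromosomes. The transporter genes are Slc1a2 at chr2:102658659-102790784 on the plus strand, Slc1a3 at chr15:8634124-8710764 on the minus strand and Slc4a4 at chr5:88886818-89239653 on the plus strand. The water channel gene Aqp4 lies at chr18:15389496-15410982 on the minus strand, and the junction genes are Gja1 at chr10:56377330-56402513 and Hepacam at chr9:37367351-37386575, both on the plus strand. The remaining genes, all on the plus strand, are Glul at chr1:153899944-153909723, Aldh1l1 at chr6:90486427-90600203, Aldoc at chr11:78322968-78327781 and S100b at chr10:76253853-76261159. Aqp4, Slc1a2, Slc1a3, Glul, Aldh1l1 and S100b overlap another annotated gene (for S100b, Dip2a on the opposite strand). Whether the counting used strand is not given in the sources used here, so reads from such partners could not be separated.

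The genes differed far more in level than any group differed from another. Per kilobase of exon, the Sham level was highest for Glul, at 482 ± 35.4 CPM per kb (SD, n = 4), followed by Slc1a2 at 218 ± 32.5 and Aldoc at 197 ± 9.68. S100b stood at 74.2 ± 5.26 CPM per kb, Slc1a3 at 59.1 ± 3.93 and Hepacam at 25.9 ± 1.15. The lowest levels per kb were those of Gja1 at 15.3 ± 0.971, Aqp4 at 15.1 ± 1.93, Aldh1l1 at 12.5 ± 1.40 and Slc4a4 at 12.1 ± 1.47. Neighbours in this order overlapped between Sham libraries for Slc1a2 and Aldoc and for all 4 genes at the bottom, and did not overlap elsewhere. Of the glutamate transporters, Slc1a2 was the more abundant in every library, at 2.13 to 4.14 times the CPM per kb of Slc1a3.

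Together the 10 genes took 0.625% ± 0.0596 of each Sham library (SD, n = 4), with library sizes scaled as for the CPM values. The share was 0.546% ± 0.0865 in 1xCHI (n = 10), 0.571% ± 0.0267 in 2xCHI (n = 3), 0.598% ± 0.0456 in 3xCHI (n = 9), 0.583% ± 0.00747 in 4xCHI (n = 3) and 0.644% ± 0.0829 in 5xCHI (n = 10). On this scale the extremes were sample 16 of 1xCHI at 0.424% and sample 11 of 5xCHI at 0.805%. These ranges overlap between all groups.

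**Figure D1:**
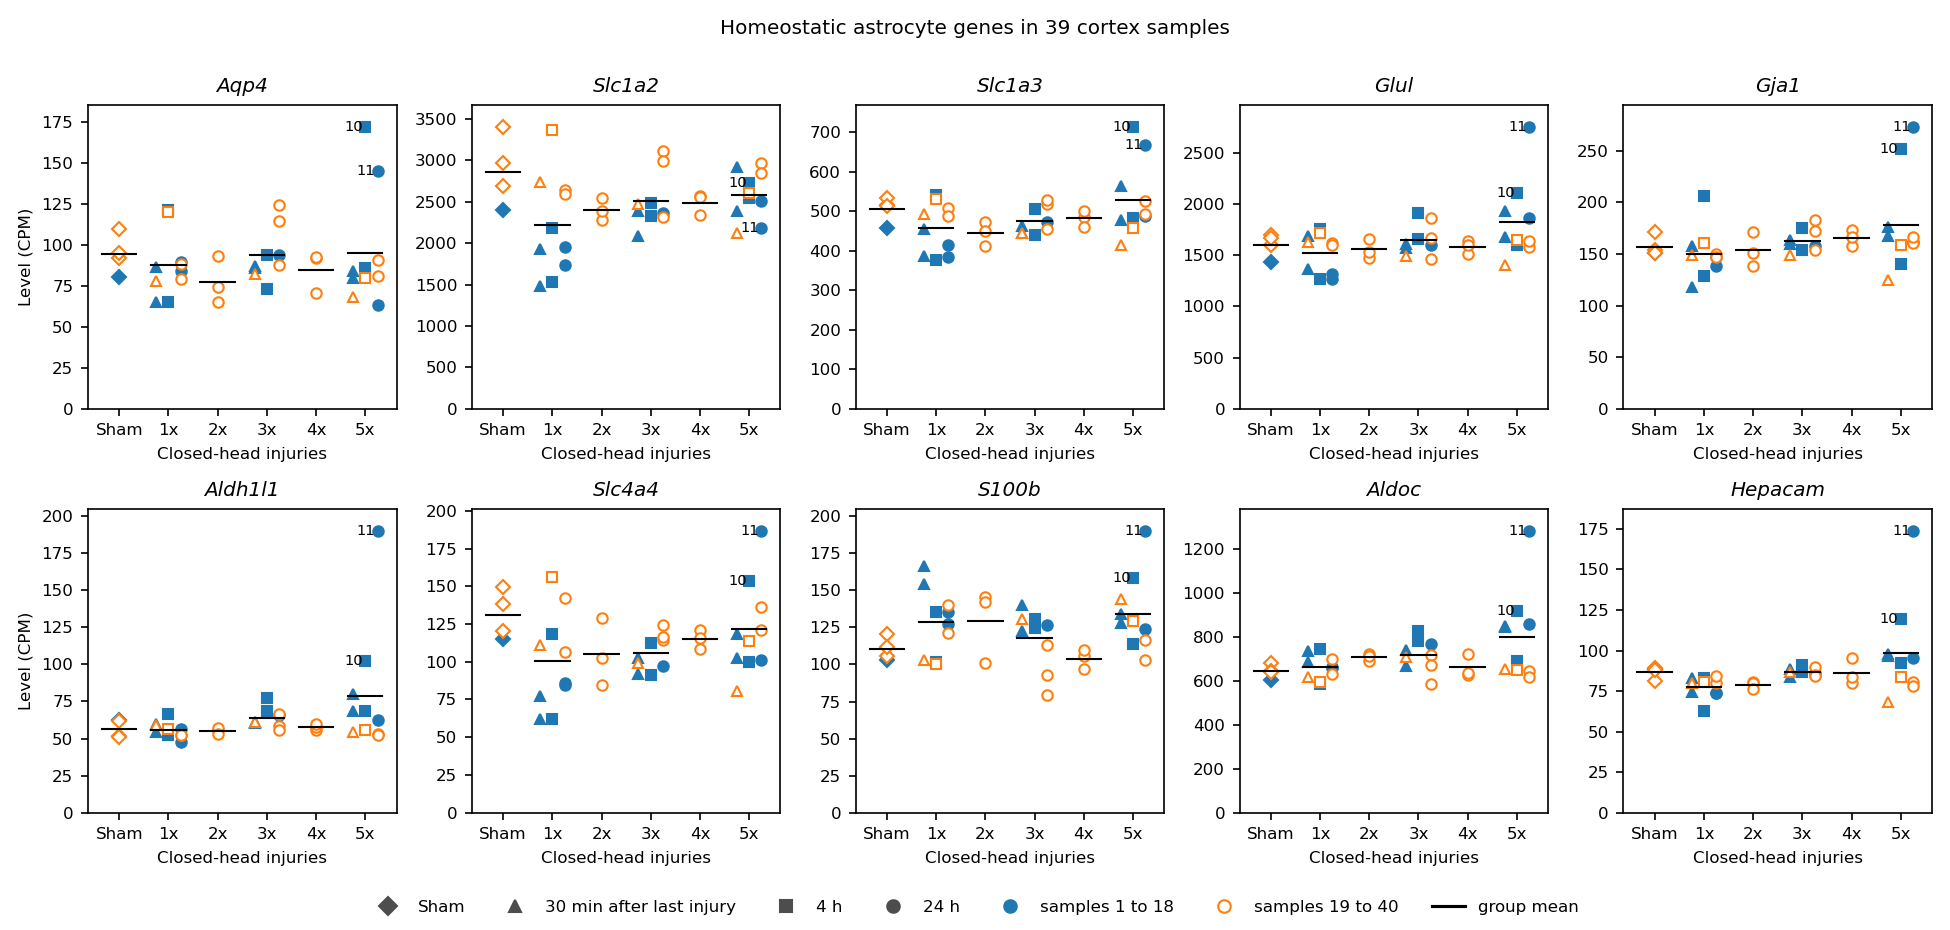
Level in CPM (vertical axis, from 0) of each of the 10 genes in 39 libraries by number of injuries (horizontal axis), with symbols for the time after the last injury, filled blue for samples 1 to 18, open orange for samples 19 to 40, and a line at each group mean. Sample 11 is the highest point for 7 of the 10 genes and sample 10 for 2, while Slc1a2 is highest in a Sham library and lowest in 1xCHI samples from the lower range.

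Over 21 comparisons, none of the 210 tests on these genes passed an adjusted p of 0.05 with edgeR's quasi-likelihood test (15224 genes, Benjamini-Hochberg). At an unadjusted p under 0.05 there were 28, of which 20 were higher, 5 lower and 3 without a direction, while 7.51% of the tests on all genes over the same 21 comparisons were under that level. With DESeq2, 1 of the 210 passed after adjustment, Hepacam in 5xCHI against 1xCHI, a comparison in which DESeq2 called 523 genes (3.44%). With edgeR the background differed by comparison: the 8 comparisons with Sham called 0% of all genes, and 5xCHI against 1xCHI called 1.1%.

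The glutamate transporter gene Slc1a2 and the bicarbonate transporter gene Slc4a4 were the genes furthest below Sham after 1 injury. Slc1a2 measured 2399, 2688, 2973 and 3402 CPM in the 4 Sham libraries and ranged from 1477 to 3366 CPM, with a median of 2068, in the 10 libraries of 1xCHI. The groups overlapped, since 4 of the 10 injured libraries lay inside the Sham range. The fitted log2 difference was -0.37 ± 0.14 (SE), with an adjusted p of 0.237 by edgeR and an unadjusted p of 0.0119. Slc4a4 measured 115, 120, 138 and 149 CPM in Sham and 62.1 to 155.9 CPM, with a median of 96.2, in 1xCHI, a log2 difference of -0.38 ± 0.18 and an adjusted p of 0.282. These 2 were the only genes of the 10 with an unadjusted p under 0.05, a level that 17.2% of all genes reached in either direction and 6.33% on the lower side, and 8 of the 10 were below 0 where 52.5% of all genes were above 0. The median over the 10 was -0.09, and over all genes 0.01, and as single libraries were left out the first ranged from -0.147 (without sample 6) to -0.0581 (without sample 16). The Slc1a2 difference then ranged from -0.47 to -0.29. Without sample 35, a Sham library, none of the 10 had an unadjusted p under 0.05, and the smallest adjusted p was 0.564 by edgeR.

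At 30 min after 1 injury, 3 of the 10 genes had an unadjusted p under 0.05, as did 19.7% of all genes. The 3 libraries at 30 min held 1477, 1929 and 2739 CPM of Slc1a2, a log2 difference from Sham of -0.48 ± 0.20, and 62.1, 77.3 and 110.9 CPM of Slc4a4, a difference of -0.65 ± 0.24. All 3 Slc4a4 values lay below the lowest Sham library, as for 4.11% of all genes. S100b went the other way at this time, with 102.9, 154.1 and 166.2 CPM against 103 to 120.5 CPM in Sham and a log2 difference of 0.36 ± 0.17. The adjusted p-values were 0.193, 0.179 and 0.251 by edgeR. The highest Slc1a2 value and the lowest S100b value at 30 min both came from sample 27. Without it, adjusted p-values were 0.0166 for Slc1a2, 0.0189 for Slc4a4 and 0.0326 for S100b, in a comparison that then called 3601 genes, 23.7% of all. Without sample 13 no gene of the 10 had an unadjusted p under 0.05 (3.78% of all genes), Slc1a2 differed by -0.30, Slc4a4 by -0.48 and S100b by 0.21, and the smallest adjusted p was 0.883. Without sample 14 it was 1 gene (9.46% of all genes), Slc4a4, with an adjusted p of 0.517.

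The 1xCHI values also differed between the ranges of sample numbers. In samples 13 to 18, Slc1a2 averaged 1803 ± 270.1 CPM (SD, n = 6), and in the 4 libraries of 1xCHI numbered 19 to 40 it averaged 2836 ± 359, against 3021 ± 359.4 CPM in the 3 Sham libraries of that range. Slc4a4 averaged 81.8 ± 20.9 CPM in samples 13 to 18 and 128.8 ± 24.1 in the upper 1xCHI libraries, against 136 ± 14.7 in the Sham libraries of the upper range. S100b averaged 136.7 ± 22.2 CPM in samples 13 to 18 and 116.2 ± 18.6 in the upper 1xCHI libraries, against 112.5 ± 7.51 in the upper Sham libraries. Within the upper range, 1xCHI minus Sham was -0.09 log2 for Slc1a2 (exact permutation p = 0.457) and -0.09 for Slc4a4 (exact permutation p = 0.571), where 0.0571 is the smallest p that 4 against 3 allowed. The lower range holds 1 Sham library, so no test was made in it. With the range as a covariate, the edgeR differences from Sham were -0.28 for Slc1a2 (unadjusted p = 0.0198, adjusted p = 0.508) and -0.31 for Slc4a4 (unadjusted p = 0.0787, adjusted p = 0.563) in 1xCHI. At 30 min they were -0.37 for Slc1a2, -0.58 for Slc4a4 and 0.26 for S100b, with adjusted p from 0.344 to 0.477. Samples 13 to 18 also held summed neuronal markers (12 of 12 genes measured) of 9881 to 11222 CPM, against 12910 to 13295 CPM in the upper 1xCHI libraries, and summed meningeal markers (9 of 9 genes, none at 0) of 757 to 4031 CPM, against 551 to 632 CPM. Choroid plexus markers (5 genes, of which 2 passed the filter) summed to 23.8 to 47.95 CPM, against 10.1 to 19.9 CPM. The 10 genes summed to a median of 4769 CPM in samples 13 to 18 and 6051 CPM in the upper 1xCHI libraries, and the 39 other homeostatic astrocyte genes described at the end to 5622 and 5691 CPM. Sums of the oligodendrocyte, oligodendrocyte precursor, reactive astrocyte, microglial, endothelial and hemoglobin lists overlapped between samples 13 to 18 and the upper 1xCHI libraries. Oligodendrocyte medians were 7138 and 5425 CPM, and reactive astrocyte medians 293.5 and 226.3 CPM. The part of these markers in the result was not tested.

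After 5 injuries the genes furthest above Sham were metabolic genes and S100b. Aldh1l1 measured 50.7, 51.5, 61.7 and 62.5 CPM in Sham and 52.1 to 190 CPM, with a median of 65.4, in the 10 libraries of 5xCHI. The log2 difference was 0.48 ± 0.20 (adjusted p = 0.398 by edgeR). Aldoc ranged from 604 to 682 CPM in Sham and from 614 to 1280 CPM, with a median of 767, in 5xCHI, a difference of 0.32 ± 0.12 (adjusted p = 0.374). S100b differed by 0.29 ± 0.14 (adjusted p = 0.428), with a median of 128.9 CPM in 5xCHI and 108.6 in Sham. Every group pair overlapped. These 3 had an unadjusted p under 0.05 on the higher side, as did 7.51% of all genes, and 8 of the 10 genes were above 0, as were 52.5% of all. With the range as a covariate, Aldoc at 0.22 (adjusted p = 0.758) was the 1 gene still under that level on the higher side, as were 3.84% of all genes, and Aldh1l1 differed by 0.33 and S100b by 0.20. In the fit without it, the genes below 0 were the transporters Slc1a2 (-0.15 ± 0.14) and Slc4a4 (-0.11 ± 0.18). Without samples 10 and 11 the differences were 0.12 for Aldh1l1, 0.17 for Aldoc and 0.17 for S100b, 4 of the 10 genes were above 0, and the median over the 10 was 0.00 in place of 0.18. Within the upper range, 5xCHI minus Sham was below 0 for 9 of the 10 genes (49.9% of all genes), with a median of -0.115. Aqp4 was the furthest below, at -0.31, and its 4 injured libraries (68.1, 80.0, 80.7 and 90.8 CPM) lay under the 3 Sham libraries (92.2, 94.9 and 109.9 CPM), as for 2.29% of all genes, with the smallest exact permutation p this size allows, 0.0571, or 0.357 after adjustment over 50 tests.

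After 2, 3 and 4 injuries no gene of the 10 had an unadjusted p under 0.05 against Sham, where 4.45%, 3.86% and 1.7% of all genes did. With the range as a covariate Slc1a2 after 2 injuries did, at -0.33 (unadjusted p = 0.0355, adjusted p = 0.399 by edgeR). The share of all genes in that fit was not counted. Hepacam in the 9 libraries of 3xCHI kept to 83.7 to 91.3 CPM, and Sham spanned 80.95 to 89.1 CPM. Aldh1l1 in 3xCHI lay between 55.6 and 77 CPM, a difference from Sham of 0.17 ± 0.20. Slc4a4 was the lowest of the 10 after 2 injuries (-0.31 ± 0.24) and 3 injuries (-0.31 ± 0.18), and Slc1a2 after 4 (-0.20 ± 0.18).

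**Figure D2:**
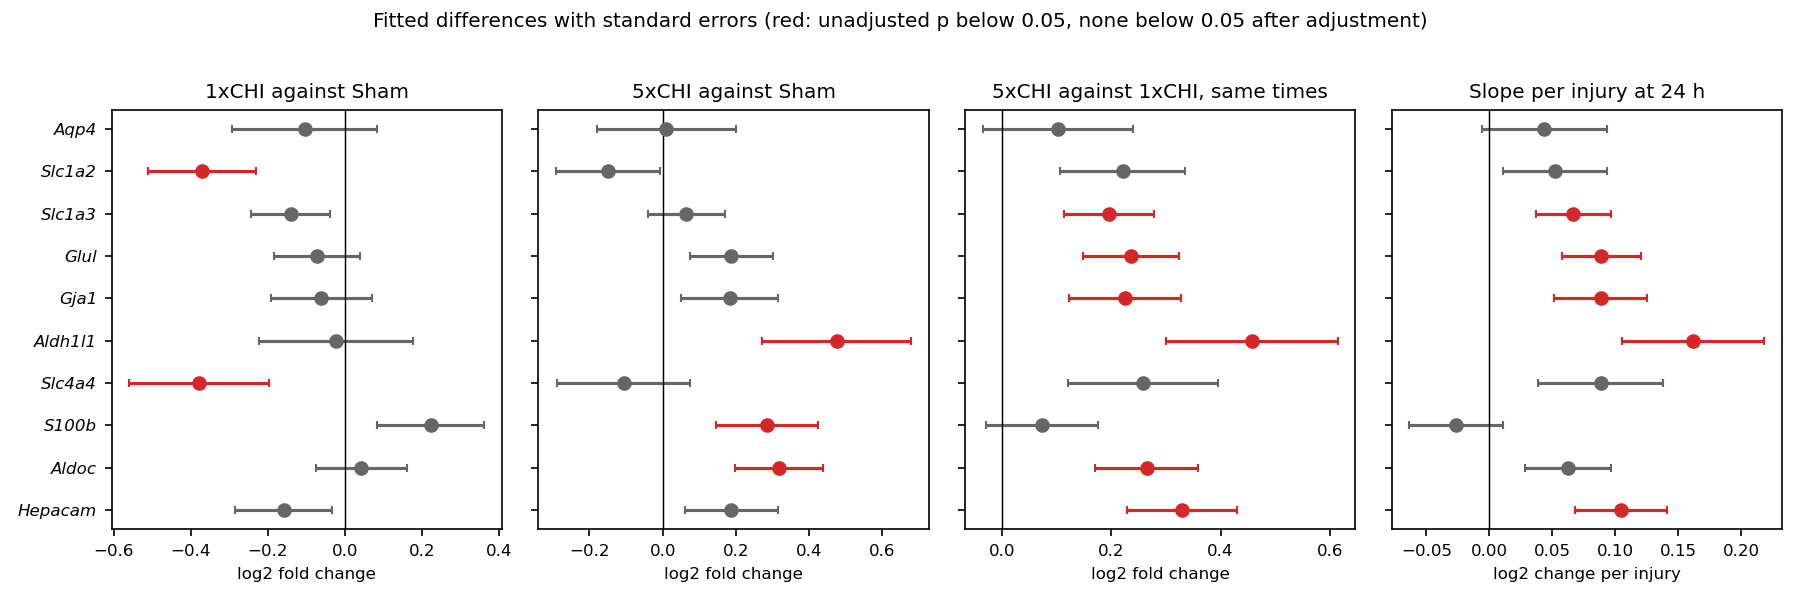
Fitted log2 differences (horizontal axis) with standard errors for the 10 genes (rows) in 1xCHI against Sham, 5xCHI against Sham and 5xCHI against 1xCHI at the same times, and the log2 slope per injury at 24 h, with red for an unadjusted p under 0.05. Slc1a2 and Slc4a4 lie furthest below 0 after 1 injury, and all 10 genes lie above 0 in 5xCHI against 1xCHI.

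Because 1xCHI and 5xCHI were sampled at the same 3 times, they were compared directly, without Sham. All 10 genes were higher in 5xCHI, where 49.6% of all genes were, and the median log2 difference over the 10 was 0.23 against 0.00 over all genes. Hepacam had the smallest adjusted p of the 10, at 0.0864 by edgeR, with a difference of 0.33 ± 0.10. It ranged from 62.6 to 84.2 CPM with a median of 79.95 in 1xCHI, and from 68.5 to 173.7 CPM with a median of 93.7 in 5xCHI. In all, 6 genes had an unadjusted p under 0.05 on the higher side, a level reached by 8.07% of all genes: Hepacam, Aldh1l1 (0.46 ± 0.16), Aldoc (0.26 ± 0.09), Glul (0.24 ± 0.09), Gja1 (0.23 ± 0.10) and Slc1a3 (0.20 ± 0.08). The smallest differences were those of S100b (0.07 ± 0.10) and Aqp4 (0.10 ± 0.14). Between 3xCHI and 1xCHI at the same times, 9 of the 10 genes were higher after 3 injuries (47.5% of all genes), by a median of 0.12, and none had an unadjusted p under 0.05 (9.47% of all genes). Without sample 16, a 1xCHI library at 4 h, 6 of the 10 were higher, by a median of 0.07. With the range as a covariate Slc1a2 differed by 0.20 (unadjusted p = 0.0494, adjusted p = 0.366 by edgeR). Without samples 10 and 11, which are in neither group, 3 genes had an unadjusted p under 0.05, and 3 with only the groups compared. The smallest adjusted p was 0.188 and 0.259 by edgeR, and shares of all genes in these fits were not counted. Returning to 5xCHI against 1xCHI without samples 10 and 11, 8 of the 10 genes were above 0, the median was 0.13, and 2 in place of 6 had an unadjusted p under 0.05 on the higher side (8.56% of all genes), Hepacam at 0.17 (adjusted p = 0.16) and Aldh1l1 at 0.14 (adjusted p = 0.241). Aldoc and Glul then differed by 0.13 each, Slc1a3 by 0.09 and Gja1 by 0.06.

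The same comparison within each range gave different values. In samples 1 to 18, 6 libraries of 5xCHI faced 6 of 1xCHI, with 2 at each time in either arm, and all 10 genes were higher in 5xCHI by a median of 0.43, where 49.2% of all genes were higher. Slc1a2 differed by 0.505 and Hepacam by 0.548, and for both the 6 libraries of 5xCHI lay above all 6 of 1xCHI, as they did for 2.23% of all genes. The exact permutation p was 0.00216 for each, which is the smallest that 6 against 6 can give, and 0.0541 after adjustment over the 50 tests of this kind. Slc4a4 differed by 0.63 and Aldh1l1 by 0.65. In samples 19 to 40, 4 libraries faced 4, again matched in time, and 2 of the 10 genes were higher (50.8% of all genes), with a median of -0.07 and a smallest exact permutation p of 0.229. The difference between the ranges was not itself tested. The 1xCHI libraries of the lower range are samples 13 to 18. Their neuronal, meningeal and choroid plexus sums, given above, did not overlap those of the upper 1xCHI libraries. The part of this in the values was not tested. Leaving samples 10 and 11 out of the lower range left 8 of the 10 genes above 0, by a median of 0.28.

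**Figure D3:**
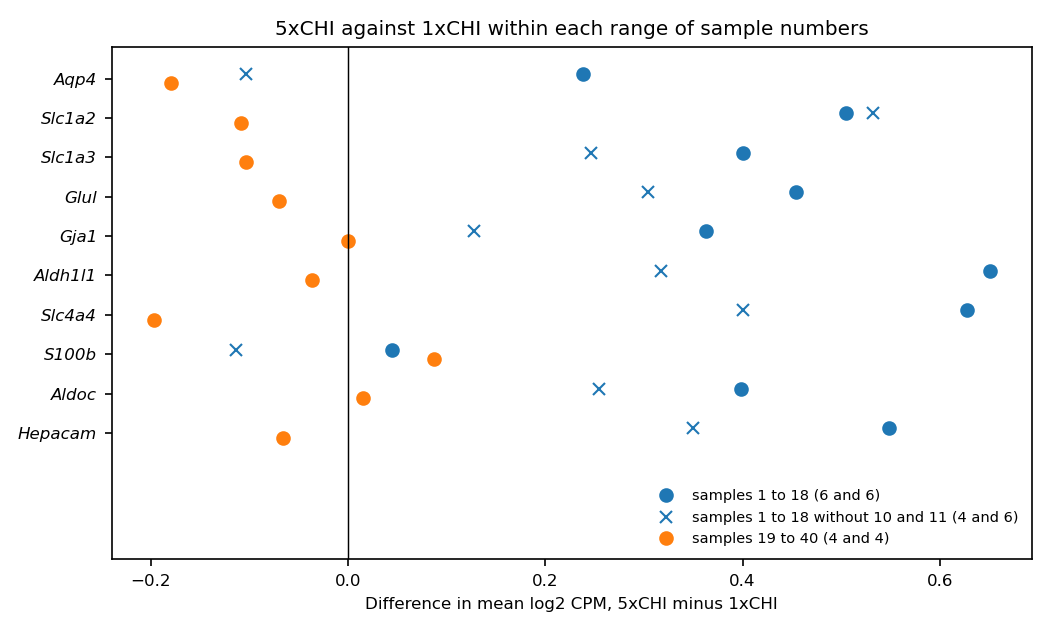
Difference in mean log2 CPM between 5xCHI and 1xCHI (horizontal axis) for each gene (rows) in samples 1 to 18 (blue circles, 6 against 6), in the same range without samples 10 and 11 (crosses, 4 against 6) and in samples 19 to 40 (orange circles, 4 against 4). All 10 blue circles lie above 0, with a median of 0.43, and 8 of the 10 orange circles lie below 0, with a median of -0.07.

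Samples 10 and 11 carried the highest values of most of the genes. In sample 11, taken 24 h after the fifth injury, Aldh1l1 reached 190 CPM, 3.36 times the Sham mean and 2.38 times the highest of the other 8 libraries of 5xCHI. Hepacam reached 173.7 CPM and Aldoc 1280 CPM, 2.00 and 1.99 times their Sham means. Glul, Gja1 and S100b stood at 1.72, 1.74 and 1.73 times the Sham mean, and Aqp4, Slc4a4 and Slc1a3 at 1.54, 1.43 and 1.32 times. Slc1a2 alone was below its Sham mean, at 2186 CPM or 0.763 times, and it ranked 31 of 39. Sample 10 had the same exception, with Slc1a2 at 0.954 times the Sham mean and the other 9 genes at 1.17 to 1.82 times, Aqp4 highest. The CPM ratio of Slc1a2 to Slc1a3 was accordingly lowest of all libraries in sample 11, at 3.28, against 5.20 to 6.37 in Sham.

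Several other marker lists also lay outside the rest in these 2 libraries. Summed microglial markers (12 of 12 genes, none at 0) were 961 and 1232 CPM in samples 10 and 11, against 322 to 567 CPM in the other 37 libraries. Summed neuronal markers were 9522 and 8137 CPM, against 9881 to 14137 CPM. Summed oligodendrocyte markers (10 of 10 genes) were 8018 and 9079 CPM, against 3962 to 8006 CPM, and summed reactive astrocyte markers (13 genes, of which 9 passed the filter) were 2220 and 3627 CPM, against 180 to 784 CPM. Summed oligodendrocyte precursor markers (3 of 3 genes) were 145.8 and 127.8 CPM, against 64.6 to 124.8 CPM. The 39 other homeostatic astrocyte genes described at the end summed to 7429 and 8986 CPM, against 4956 to 6810 CPM. Endothelial (10 genes), meningeal (9 genes), choroid plexus (5 genes, of which 2 passed the filter) and hemoglobin (4 genes) sums of samples 10 and 11 lay inside the range of the other 37 libraries, for example 201 and 240 CPM of endothelial markers against 146 to 318.5 CPM. The part of cell composition in these values was not tested.

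**Figure D4:**
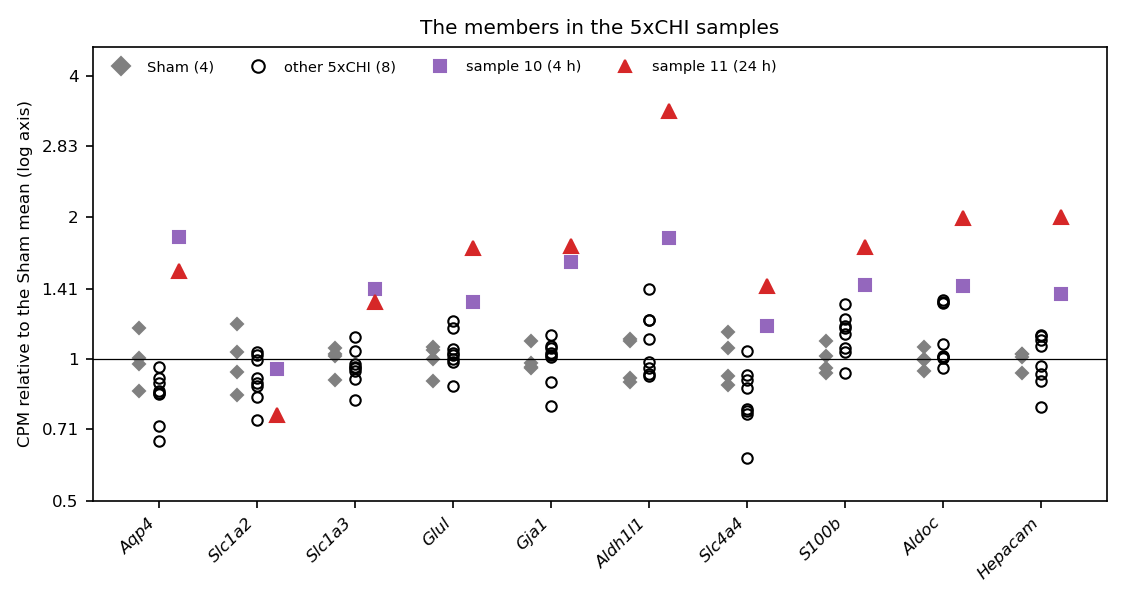
CPM relative to the Sham mean (vertical log axis) for each gene (horizontal axis) in the 4 Sham libraries (grey diamonds), sample 10 (square), sample 11 (triangle) and the other 8 libraries of 5xCHI (open circles). Samples 10 and 11 lie above every other 5xCHI library for 9 of the 10 genes, and for Slc1a2 they lie at 0.954 and 0.763.

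At 24 h after the last injury, where each number of injuries from 1 to 5 was sampled, the fitted slope per injury was above 0 for 9 of the 10 genes, as for 51.3% of all genes. Aldh1l1 had the steepest slope, at 0.16 ± 0.06 log2 per injury, followed by Hepacam at 0.10 ± 0.04, Glul at 0.09 ± 0.03, Gja1 at 0.09 ± 0.04 and Slc1a3 at 0.07 ± 0.03. These 5 had an unadjusted p under 0.05 on the higher side (4.25% of all genes) and an adjusted p of 0.67 by edgeR. The test for any difference between injury numbers at 24 h gave Aldh1l1, Glul and Hepacam an unadjusted p under 0.05, as for 4.83% of all genes, with an adjusted p of 0.987. With the range as a covariate the slopes of those 5 genes were 0.07 to 0.15, each with an unadjusted p under 0.05, and the test for any difference gave none of the 10 a p under that level. S100b had the only negative slope, at -0.03 ± 0.04. The Aldh1l1 means at 24 h were 52.1 ± 3.52 CPM after 1 injury (SD, n = 4), 55.4 ± 2.07 after 2 (n = 3), 61.5 ± 5.27 after 3 (n = 4), 57.6 ± 2.00 after 4 (n = 3) and 89.3 ± 67.3 after 5 (n = 4). Without sample 11 the slopes were 0.028 for Aldh1l1 and 0.040 for Hepacam, and no gene of the 5 kept an unadjusted p under 0.05.

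Each injury was also compared with the state before it: 1xCHI with Sham, 3xCHI with 2xCHI at 24 h, and 5xCHI with 4xCHI at 24 h. Against Sham, no gene of the 10 had an unadjusted p under 0.05 at 4 h or 24 h after the first injury, where 10.5% and 6.02% of all genes did. At 4 h, 0 to 8 of the 10 were above 0 as single libraries were left out, with medians from -0.123 to 0.0896. Without sample 36, 2 genes had an unadjusted p under 0.05 (smallest adjusted p = 0.0565 by edgeR), in a fit that called 578 genes of all. Against 2xCHI, no gene of the 10 had an unadjusted p under 0.05 at 30 min, 4 h or 24 h after the third injury, where 1.88%, 2% and 4.57% of all genes did. The widest spread was at 24 h, with Aqp4 at 87.9, 93.7, 114.4 and 124.4 CPM after 3 injuries and 65, 74.5 and 93.4 CPM after 2, a log2 difference of 0.44 ± 0.23. S100b there was 79.2, 93.1, 113.5 and 126.6 CPM after 3 injuries and 100.8, 142.5 and 145.7 CPM after 2, a difference of -0.33 ± 0.17. Both sets of values overlapped, and both adjusted p-values were 0.943 by edgeR. With the range as a covariate S100b differed by -0.39 and was the 1 gene of the 10 with an unadjusted p under 0.05 (9.52% of all genes), at an adjusted p of 0.523.

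At 24 h after the fifth injury all 10 genes were above 4xCHI, as were 55% of all genes, with a median of 0.28. Without sample 11, 6 of the 10 were above it, with a median of 0.048. Aldh1l1 measured 52.1, 52.8, 62.4 and 190 CPM after 5 injuries and 55.7, 57.5 and 59.7 CPM after 4. The difference was 0.63 ± 0.27 with an adjusted p of 0.673 by edgeR, and sample 11 set it, since without that library it was -0.055. Aldoc (0.36 ± 0.16), S100b (0.36 ± 0.17) and Glul (0.31 ± 0.15) also had an unadjusted p under 0.05 on the higher side, as did 4.26% of all genes, and without sample 11 these were 0.086, 0.13 and 0.088. With the range as a covariate Aldh1l1 differed by 0.42, and none of the 10 had an unadjusted p under 0.05 on the higher side (2.71% of all genes). At 30 min after the fifth injury S100b was the only gene under that level, with 128, 134 and 144 CPM against 96.8, 105.5 and 109.6 CPM in 4xCHI. At 4 h after the fifth injury no gene reached it, where 5.33% of all genes did in either direction, while all 10 were above 4xCHI, as were 52.5% of all genes, by a median of 0.19. Without sample 10, which is in this group, 6 of the 10 were above 4xCHI, by a median of 0.017. The S100b groups at 30 min did not overlap, as for 9.93% of all genes in this direction, and the log2 difference was 0.38 ± 0.19 (adjusted p = 0.783 by edgeR), where 3.52% of all genes reached the unadjusted level on the higher side. When any 1 of the 6 libraries was left out, the S100b difference was 0.32 to 0.41 and none of the 10 reached that level. All 3 libraries of 4xCHI are in the upper range and 2 of the 3 at 30 min in the lower, and with the range as a covariate the S100b difference was 0.26 (unadjusted p = 0.151, adjusted p = 0.982 by edgeR).

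Time after injury, averaged over 1, 3 and 5 injuries, gave 1 gene under an unadjusted p of 0.05. Slc4a4 was lower at 30 min than at 24 h by -0.33 ± 0.14 log2 (adjusted p = 0.455 by edgeR), where 4.48% of all genes reached that level on the lower side and 0.145% of all genes passed adjustment. This difference was -0.26 without samples 10 and 11, with an unadjusted p of 0.052, and -0.27 with the range as a covariate, with an unadjusted p of 0.05. At 30 min, 9 of the 10 genes were below their 24 h level, where 47.4% of all genes were above it, and S100b was the exception (0.16 ± 0.10). The median over the 10 was -0.10, and without sample 11, a 24 h library, 6 of the 10 were below and the median was -0.03. Between 4 h and 24 h the 10 genes differed by -0.07 to 0.06, none with an unadjusted p under 0.05 (3.44% of all genes), and 0.00657% of all genes, 1 gene, passed adjustment. The test for any time difference gave none of the 10 under that level either, where 4.25% of all genes were under it and 0.0328% passed adjustment.

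Gfap, which ranged from 105 to 2410 CPM across the libraries, was set beside each gene over 39 samples as log2 CPM, with p-values from 100000 two-sided permutations adjusted over the 10 genes. Aldh1l1 followed it most closely, with a Pearson r of 0.853 and a Spearman rho of 0.733 (permutation p = 1e-05 for both, the smallest they can give, and adjusted p = 5e-05 and 0.0001). Without samples 10 and 11, the 2 farthest from the Gfap median, r was 0.716, and it was 0.892 within samples 1 to 18 and 0.634 within samples 19 to 40. Hepacam gave r = 0.74 and rho = 0.532 (permutation p = 3e-05 and 0.00055, adjusted p = 7.5e-05 and 0.00275), and r = 0.409 without the 2 samples. Gja1 gave r = 0.727 and rho = 0.486 (permutation p = 1e-05 and 0.00207, adjusted p = 5e-05 and 0.0069), and r = 0.401 without the 2 samples. Aqp4 gave r = 0.654 and rho = 0.466 (permutation p = 3e-05 and 0.00323, adjusted p = 7.5e-05 and 0.00807), and r = 0.383 without them. For the next 4 genes Pearson's r no longer passed adjustment without samples 10 and 11, and rho over all samples passed for Aldoc and Glul and not for Slc1a3 and Slc4a4. Aldoc gave r = 0.687 and rho = 0.407 (permutation p = 5e-05 and 0.0102, adjusted p = 0.0001 and 0.0204), and r = 0.366 without them (adjusted p = 0.051, against 0.0479 for Aqp4). Glul gave r = 0.628 and rho = 0.363 (permutation p = 7e-05 and 0.0239, adjusted p = 0.000117 and 0.0398), and r = 0.264 without them. Slc1a3 gave r = 0.58 and rho = 0.268 (permutation p = 0.00028 and 0.101, adjusted p = 0.0004 and 0.144), and r = 0.206 without them. Slc4a4 gave r = 0.332 and rho = 0.0828 (permutation p = 0.0397 and 0.618, adjusted p = 0.0496 and 0.717), and r = -0.00084 without them. Slc1a2 had r = -0.000766 and rho = -0.0767 (permutation p = 0.996 and 0.645, adjusted p = 0.996 and 0.717), and r = 0.44 within the lower and 0.151 within the upper range.

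S100b did not follow Gfap in 1 direction. Over all samples r was 0.264 (permutation p = 0.105, adjusted p = 0.116) and rho 0.0229 (permutation p = 0.891, adjusted p = 0.891), and r was -0.148 without samples 10 and 11. Within samples 1 to 18 r was 0.509 (permutation p = 0.0328), and within samples 19 to 40 it was -0.584 (permutation p = 0.00507, adjusted p = 0.0253; rho = -0.586). In the upper range the highest Gfap, 527 CPM in sample 38 of 3xCHI, went with the lowest S100b of all libraries, 79.2 CPM.

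**Figure D5:**
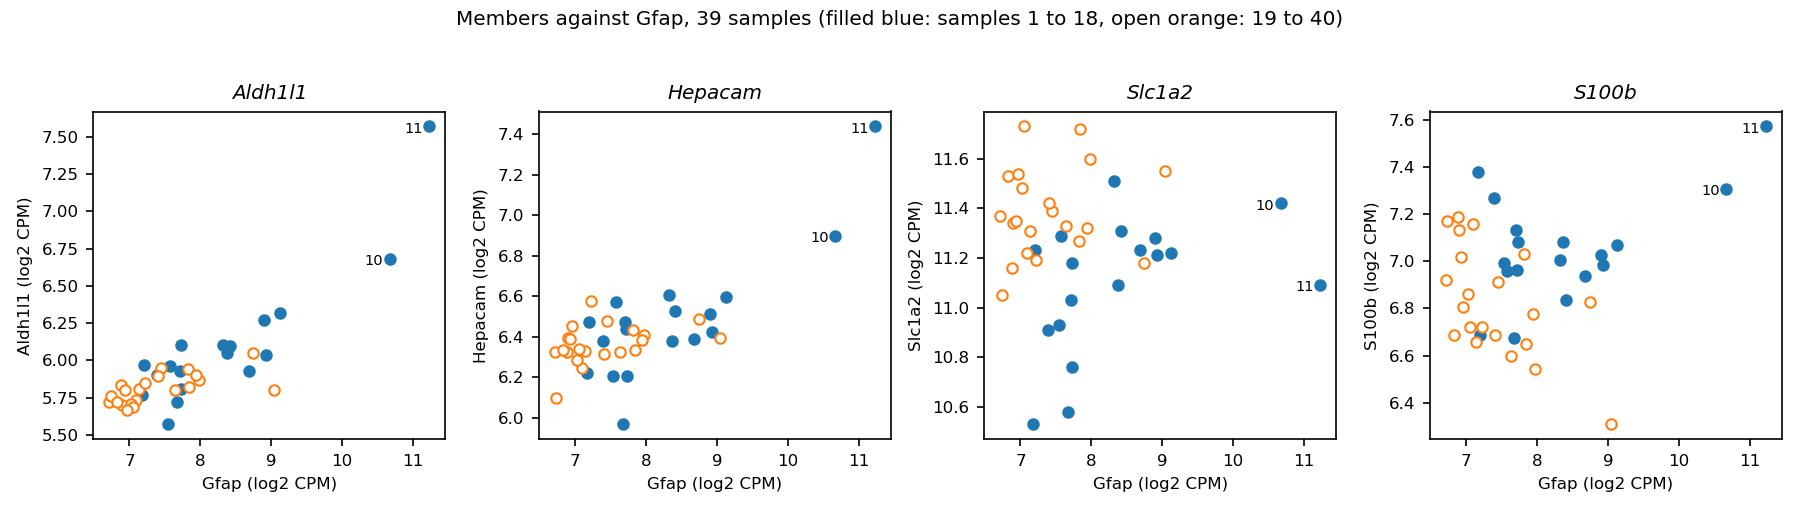
Level of Aldh1l1, Hepacam, Slc1a2 and S100b (vertical axes, log2 CPM) against Gfap (horizontal axis, log2 CPM) in 39 libraries, filled blue for samples 1 to 18 and open orange for samples 19 to 40, with samples 10 and 11 numbered. Aldh1l1 follows Gfap with and without samples 10 and 11 (r = 0.853 and 0.716), and S100b has r = 0.509 in samples 1 to 18 and -0.584 in samples 19 to 40.

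The 10 genes were not 1 block. Of their 45 pairs, 40 had r above 0 over the 39 samples, with a median of 0.62, and without samples 10 and 11 it was 34 pairs with a median of 0.448. Within the lower range it was 44 pairs with a median of 0.786, and within the upper range 26 with a median of 0.252. The closest pair was Aldh1l1 and Hepacam, with r = 0.901 and rho = 0.738 (permutation p = 1e-05 for both, adjusted over 45 pairs p = 2.37e-05 and 5.62e-05), r = 0.663 without the 2 samples farthest in Aldh1l1, and r = 0.948 and 0.431 within the lower and upper ranges. The pair most opposed was Slc1a2 and S100b, with r = -0.494 and rho = -0.561 (permutation p = 0.00142 and 0.00027, adjusted p = 0.00246 and 0.000675). It gave -0.584 without the 2 samples farthest in Slc1a2, -0.612 within the upper range and -0.119 within the lower range. Of the 9 pairs with S100b, 2 had r above 0 without samples 10 and 11, and of the 36 pairs without it, 32 did. All these points share library depth and tissue makeup.

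Genes outside the 10 with the most similar pattern were found by correlation (Pearson's r, 39 samples) with the mean standardised level of the 10. The closest were Atp1b2, a sodium pump subunit (r = 0.942), Glud1, glutamate dehydrogenase (0.931), Mlc1, a membrane protein that partners GlialCAM (0.93), Gpr37l1, a receptor of astrocytes (0.929), and Axl, a receptor kinase (0.925). Acsbg1, Rab31, Selenop, Nfe2l2 and Slc6a11 followed, with r from 0.897 to 0.923. Without samples 10 and 11 these 10 values were 0.76 to 0.84. Taken gene by gene, the nearest were Luzp2 for Slc1a2 (0.928), Gna13 for Slc4a4 (0.93), Slc6a11 for Slc1a3 (0.924), Fam107a for Glul (0.922) and Glud1 for Gja1 (0.933). For the remaining genes they were Gpr37l1 for Hepacam (0.932), Tmem176a for Aldh1l1 (0.936), Clu for Aldoc (0.911), Ckb for S100b (0.868) and Add3 for Aqp4 (0.836).

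A wider list of 39 other homeostatic astrocyte genes, of which 38 were tested, gave 0 calls in all 21 comparisons with edgeR. Against Sham, 5 had an unadjusted p under 0.05 after 1 injury, all lower (6.33% of all genes), 4 after 5 injuries, all higher (7.51% of all genes), and 0 after 2, 3 and 4. The smallest unadjusted p after 1 injury were those of the potassium channel gene Kcnj10 and of Abat, which breaks down GABA. Kcnj10 stood at 139.7 ± 40.7 CPM (SD, n = 10) against 190.2 ± 12.1 in Sham (n = 4), a log2 difference of -0.44 ± 0.18. Abat differed by -0.22 ± 0.09. After 5 injuries Mlc1 stood at 0.36 ± 0.14 and the connexin gene Gjb6 at 0.42 ± 0.19. Without samples 10 and 11 these were 0.13 ± 0.08 and 0.26 ± 0.16, none of the 38 had an unadjusted p under 0.05 after 5 injuries (6.61% of all genes), and 23 in place of 31 were above 0. The pairs with the smallest p elsewhere were Abat (-0.16) and Ppp1r3c (-0.23) after 2 injuries, Aldh1l2 (0.40) and Gjb6 (0.26) after 3, and Kcnj10 (-0.22) and Pygb (0.10) after 4. In 5xCHI against 1xCHI, 15 of the 38 were higher (8.07% of all genes) and 1 lower at that level, 32 were above 0, and the median was 0.17, beside 0.23 for the 10 genes and 0.00 for all genes. Leaving out samples 10 and 11, 4 were higher (8.56% of all genes) and 2 lower, with 27 above 0 and a median of 0.09.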

How the data were processed

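Bulk RNA of left somatomotor cortex was sequenced, and alignment and counting were done by a company for the study. The authors deposited 1 table of expected counts per gene for 40 libraries, in which 4.47% of the values are not whole, counted on mm10. The column names carry the ending of Salmon's gene-level output, while the version and settings used are not given in the sources used here. Counts were rounded, sample 30 was left out, and a gene was tested unless over 4 samples held under 10 counts of it. Levels are CPM on library sizes scaled by TMM (the trimmed mean of M-values), with a prior count of 1 on the log2 scale, and are comparable between genes only per kb of GENCODE M21 exon. The 12 groups, taken from sample titles, were fitted in 1 model by edgeR 4.0.16 quasi-likelihood tests (R 4.3.3), with Benjamini-Hochberg adjustment over all 15224 genes. Comparisons of a whole injury number with Sham came from a separate edgeR model. In it the times after the last injury were combined, so their differences enter its spread. Single values within ranges were tested by two-sided exact permutation (scipy). Where no separate litters or cultures are named, p-values measure the spread between these samples. The 10 genes and all gene lists, like the division at sample 18, were chosen with earlier results of these data known. Named genes were all 10, Gfap, the 2 genes of the other homeostatic list with the smallest p in each comparison with Sham, and the genes most correlated with the 10 and with each. The tests were also run on simulated counts with no libraries like samples 10 and 11 and no difference between ranges. That check does not cover these features. Alternatives were DESeq2 1.42.0, library size scaling, other filters, all 40 samples, only the groups compared, sample number or range as a covariate and each sample left out, and, after the values were seen, samples 10 and 11 left out. No protein sequences were used here.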

Additional observations from a re-analysis of the deposited data

Results flagged for a closer look

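Of 70 groups of 4 to 10 libraries examined gene by gene, 9 held a library whose gap to the others passed Dixon's 95% critical value, where chance gives about 3.5. Sample 11 was the high value in 6 of them. It held 2754 CPM of Glul in 5xCHI (others 1406 to 2113), 1280 CPM of Aldoc (614 to 919), 174 CPM of Hepacam (68.5 to 119) and 190 CPM of Aldh1l1, which stood apart both in 5xCHI (others 52.1 to 102) and at 24 h alone (52.1 to 62.4). It also held 273 CPM of Gja1 at 24 h (160 to 166). In 1xCHI, sample 15 was high in Gja1 at 206 CPM (118 to 161) and sample 16 low in Hepacam at 62.6 CPM (73.7 to 84.2). In Sham, sample 35 was low in Hepacam at 80.9 CPM (87.8 to 89.1).

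In 10 cases every library lay on one side after one injury number and on the other after another, relative to the mean of the group before the injury. These differences were not tested, and how often this happens over all genes or by chance was not counted. The groups hold 2 to 4 libraries, and some margins were small. For Aldh1l1 at 24 h, sample 17 of 1xCHI held 56.1 CPM against a Sham mean of 56.6. Between 1xCHI and 3xCHI the log2 effects differed at 30 min by -0.449 for Aqp4, -0.21 for Slc1a3 and -0.262 for Hepacam, and at 4 h by -0.383 for Hepacam. At 24 h they differed by -0.575 for Aqp4, -0.227 for Gja1, -0.264 for Aldh1l1, -0.281 for Hepacam and 0.585 for S100b. Between 3xCHI and 5xCHI, Aqp4 at 30 min differed by 0.276.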

How the results depend on the processing

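The 10 genes are well counted at these depths, and groups of 2 to 4 libraries limit every comparison at a single time. No paired analysis was possible because each sample number occurs once, so no groups share replicate numbers. The count of the 10 genes called stayed at 0 in every comparison and alternative run except in 2 comparisons. In 1xCHI at 30 min against Sham it ranged from 0 to 3 as single libraries were left out, with 3 without sample 27. In 5xCHI against 1xCHI it ranged from 0 to 1, with Hepacam called (1) under DESeq2 and without sample 31, 33 or 34, when 535, 333 and 330 genes of all were called. The Aldh1l1 difference between 5xCHI and 4xCHI at 24 h ranged from -0.055 to 0.82 as single libraries were left out, reversing without sample 11, and was -0.055 without samples 10 and 11. Correlations with Gfap that changed sign or side of the threshold were, with library size scaling alone, Slc1a2 at 0.0525, and with all 40 samples, Slc4a4 at 0.304. Without samples 10 and 11 they were Slc1a2 at 0.0104, Slc1a3 at 0.206, Glul at 0.264, Slc4a4 at -0.00084, S100b at -0.148 and Aldoc at 0.366. Within samples 1 to 18 they were Slc1a2 at 0.44 and S100b at 0.509. Within samples 19 to 40 they were Slc1a2 at 0.151, Slc1a3 at 0.235, Glul at 0.106, Gja1 at 0.387, Slc4a4 at 0.118, S100b at -0.584, Aldoc at -0.178 and Hepacam at 0.38. The cause was not tested.

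Over all genes, calls in 5xCHI against 1xCHI numbered 167, but 0 with only the groups compared, 8 without samples 10 and 11, 523 under DESeq2, and 0 (without sample 7) to 640 (without sample 27) as single libraries were left out. For 30 min against 24 h they numbered 22, with 2 to 52 under alternatives and 4 (without sample 8) to 192 (without sample 27). For any time difference they numbered 5, with 0 to 59 and 2 to 28, and for 4 h against 24 h 1, with 0 to 3 and 1 to 4. Comparisons with 0 calls gave under DESeq2 29 in 1xCHI, 28 in 1xCHI at 30 min, 11 in 1xCHI at 4 h, 10 in 5xCHI, 36 in 3xCHI against 1xCHI, 31 for any difference at 24 h, 4 in 3xCHI at 30 min and 1 in 5xCHI at 30 min. With only the groups compared they gave 2 in 3xCHI, 4 in 3xCHI at 4 h and 1 in 3xCHI at 24 h. Without 1 library they reached 3601 in 1xCHI at 30 min (sample 27), 578 in 1xCHI at 4 h (sample 36), 37 in 3xCHI against 1xCHI (sample 27) and 5 in 3xCHI at 30 min (sample 5).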

Other observations

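Sample 30, the 3xCHI library at 4 h that was left out, held 2551 CPM of Slc1a2, 477.7 CPM of Slc1a3, 1711 CPM of Glul and 646 CPM of Aldoc when all 40 libraries were scaled together. It held 54.5 CPM of Aldh1l1, 85.1 CPM of Hepacam, 137.5 CPM of S100b, 133 CPM of Slc4a4, 147.7 CPM of Gja1 and 76.4 CPM of Aqp4. The other libraries of its group, samples 1 and 3, held 77 and 68.6 CPM of Aldh1l1.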
